A study of Mus with 4 samples.

Results

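The mitotic entry and checkpoint kinase genes are 10 mouse genes chosen by name, 4 of them because the study names them (Aurka, Aurkb, Plk1 and Ccnb1) and the others (Ccnb2, Cdk1, Wee1, Pkmyt1, Bub1 and Bub1b) because they act beside these at the entry into and exit from mitosis. The study names those 4 as genes that E2F7 and E2F8 inhibit, and does not describe them as bound by TBX3. All 10 were found among the 21887 protein-coding genes that RefSeq places on the 21 main chromosomes of GRCm38. The question was how much TBX3 ChIP signal the deposited track holds at these genes.

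Primary mouse hepatocytes were grown in expansion medium and made to overexpress TBX3 from an integrated transposon, pT2-SVNeo-EF1-eGFP-P2A-Tbx3-HA, in which the EF1 promoter drives GFP and HA-tagged Tbx3. Chromatin was precipitated with an anti-HA antibody in 2 TBX3 ChIP libraries, and 2 Input libraries hold sonicated chromatin that was not precipitated. All 4 libraries carry the same construct, so the contrast is precipitated against total chromatin of cells with excess tagged TBX3, and cells with the native amount of TBX3 were not analysed here. The track holds no transcript levels, so the labelled cell type could not be checked against its markers.

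The cyclin B and CDK1 complex drives a cell from G2 into mitosis. WEE1 and PKMYT1 hold it inactive by phosphorylating CDK1, while PLK1 and Aurora A help to release this block. Aurora B corrects faulty attachments of chromosomes to the spindle, and BUB1 and BUBR1, the product of Bub1b, serve in the spindle assembly checkpoint, which delays anaphase until every chromosome is attached. Hepatocytes often duplicate their genome without dividing, and E2F7 and E2F8 are repressors of cell cycle genes that favour this polyploid state. E2f7 and E2f8 are the genes that the study describes as bound by TBX3, and they serve below as genes of reference.

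The authors deposited a single genome-wide track of −log10 p-values, called scores here, each comparing the ChIP reads over a base with the number expected from Input under a Poisson distribution. The track gives no value per library, so no score has a replicate error and groups of libraries could not be compared. A whole number of reads and an expected level were inferred behind each score. At the genome-wide expected level of 2.43 reads, 7 reads give a score of 2.44, 8 reads give 3.02, 9 give 3.65, 10 give 4.31 and 11 give 5.01, which is why several genes share a score. Read depth on the autosomes ranged from 0.699 to 1.41 times their median, with chromosome 10 the deepest. In all, 125 regions were called, each a stretch of 200 bp or more that scored 5 or more throughout, apart from gaps no longer than 30 bp.

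None of the 10 genes had a score of 5 or more within 1 kb of a gene end. The highest was 4.31 at Cdk1 and the lowest 1.37 at Ccnb2. The median over the 10 genes was 2.44, and it was 2.44 over all protein-coding genes. Since strand is missing from the annotation used here, the window covers either end and the start of transcription was not singled out. A score of at least 5 near an end was reached by 0 of the 10 genes and by 3.60% of all protein-coding genes. A score of at least 3 was reached by 4 of the 10, Cdk1, Plk1, Aurka and Bub1b, and by 29.1% of all genes. Counting read pairs once was approximated by dividing the reads at each base, rounded down, and the expected level by 2. The reads of a pair need not cover the same base, so this is not an exact count of pairs. With read pairs counted once in this way none of the 10 reached 3 (2.29% of all genes). With the expected level raised to chromosome depth 2 did, Plk1 and Cdk1 (21.5% of all genes). No test over genes was made, since genes are not replicates and the 10 were chosen by name.

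Inside the gene bodies the 10 genes scored from 2.44 at Plk1 to 5.01 at Cdk1 and Bub1, with a median of 3.65 against 3.02 over all genes. Of the 10 genes, 9 reached a score of 3 there (61.9% of all genes) and 2, Cdk1 and Bub1, reached 5 (13.9% of all genes). In the 10 kb outside either end the scores ran from 1.90 at Ccnb2 to 5.24 at Cdk1, with a median of 3.65 against 3.55 over all genes. There 7 genes reached 3 (74.8% of all genes) and 1, Cdk1, reached 5 (10.3% of all genes). Longer windows hold more bases and so tend to higher maxima, which bears on inside scores of genes as unlike in length as Aurkb and Bub1b. The window at the ends overlaps the other windows, so the same base can count in both. At Plk1, Ccnb1 and Wee1 the end score and the outside score come from the same base.

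No called region overlapped any of the 3 windows of any of the 10 genes. The shares of all protein-coding genes with a region were 0.311% at the ends, 0.347% inside and 0.480% outside. At such low shares a count of 0 among 10 genes is close to the background. After Benjamini-Hochberg adjustment over all bases of the track, an adjusted p of 0.05 corresponds to a score of 5.46, and no base in the 3 windows of the 10 genes reached it. Of all protein-coding genes, 2.26% reached it at an end, 7.41% inside and 5.38% outside, so 0 of 10 is near the background here too. E2f7 reached a score of 22.79 and E2f8 one of 15.53 within 1 kb of an end, each with a called region. With read pairs counted once these were 11.83 and 8.14, and with 500 bp windows E2f8 scored 3.65, since its peak lies 830 bp from the gene. The highest base of that peak also lies inside another annotated gene, Gm2788.

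**Figure D1:**
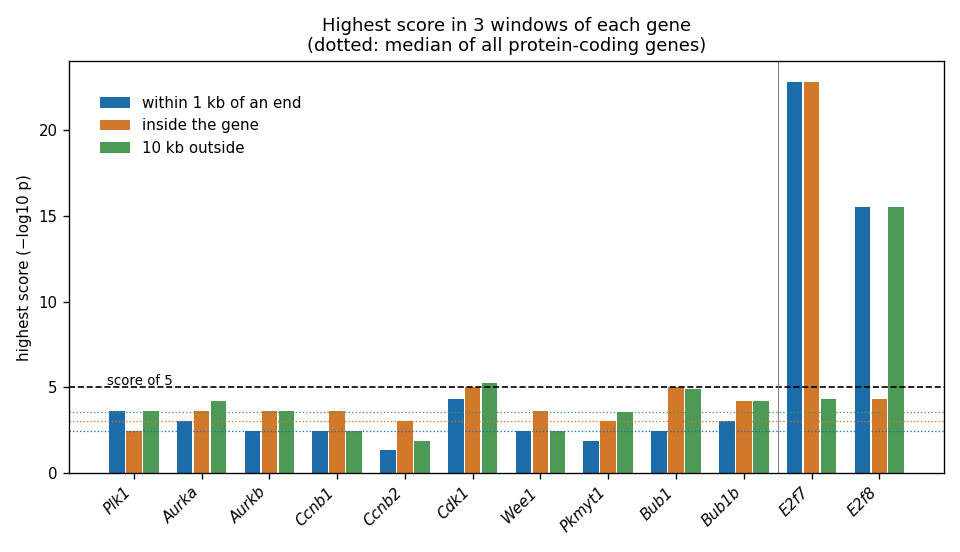
Bars give the highest score (−log10 p, linear axis from 0) of each gene within 1 kb of either end, inside the gene and in the 10 kb outside; dotted lines are the medians of all protein-coding genes and the dashed line is a score of 5. The 10 genes stay between 1.37 and 5.24, and E2f7 and E2f8 on the right reach 22.79 and 15.53.

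Plk1 encodes polo-like kinase 1, which acts at mitotic entry, at centrosomes and at the spindle. The gene (gene 18817) lies on chromosome 7 from 122159435 to 122169884. Its end score of 3.65 lay 407 bp outside the lower-coordinate end, where 9 ChIP reads were inferred against 2.43 expected, with an adjusted p of 0.198. The higher end scored 1.42, which is 5 reads, and the exact Poisson intervals for 9 reads (4.12 to 17.1) and 5 reads (1.62 to 11.7) overlap. Of all protein-coding genes, 14.7% had an end score as high (95% Wilson interval 14.3 to 15.2%), and of the 2030 on chromosome 7, 10.1% did. The Wilson interval covers counting of genes only, and the share was 38.1% by the mean score, 28.0% with read pairs counted once, 23.9% with 2 kb windows and 9.06% with 500 bp windows. Bases with a score of at least 3 formed a run of 39 bp there. Inside the gene the highest score was 2.44, and 76.4% of genes scored as high. Plk1 was the only one of the 10 whose highest score at an end exceeded its highest score inside. Its end base lies outside the gene, so the inside window could not hold it. Several of the 60 other G2 and M phase genes described below had the same order, and the share of all genes was not computed.

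Aurka encodes Aurora A, a kinase of centrosomes and spindle poles that activates PLK1 before mitosis. It lies on chromosome 2 from 172356190 to 172370886 (gene 20878). The lower end scored 1.42 and the higher end 3.02, from 8 reads 15 bp outside the gene, with an adjusted p of 0.298. Cstf1, a gene for a subunit of the mRNA cleavage stimulation factor, overlaps this base and has its own end within 1 kb, so the score cannot be assigned to either gene. In the 10 kb outside, Aurka scored 4.20, again at a base inside Cstf1, 5039 bp from the Aurka end. Of all genes, 29.0% had an end score as high and 26.5% an outside score as high. The end share was 17.7% with 500 bp windows, 23.9% with 2 kb windows and 18.2% by the mean score. It was 28.0% with read pairs counted once and 29.8% with the expected level raised to chromosome depth.

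Aurkb encodes Aurora B, the kinase of the chromosomal passenger complex. It lies on chromosome 11 from 69045624 to 69051664 (gene 20877), and at 6041 bp it is the shortest of the 10 genes. Its ends scored 1.00 and 2.44, the latter from 7 reads, and 50.5% of all genes scored as high. With windows of 500 bp in place of 1 kb the end score was 0.64, and 96.8% of genes scored as high. With windows of 2 kb it was 3.65, and 23.9% of genes scored as high. Its inside and outside windows both reached 3.65, from 9 reads. The mean score over the 10 kb outside was 0.511, and 2.92% of genes had a mean as high, while the highest score there was matched by 46.6% of genes. The mean around Aurkb was thus high without a high single base. There 185 bases scored 3 or more, the longest run being 72 bp. Around Cdk1 217 bases did and around Bub1b 184, with fewer around the rest of the 10 genes. The count of such bases was not compared with all genes.

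Cdk1 encodes the kinase whose activation with cyclin B starts mitosis, and in the deposited scores it was highest of the 10 genes in each of the 3 windows, tied with Bub1 inside. At the ends this place passed to Plk1 when the expected level was raised to chromosome depth, which changes only chromosomes deeper than the autosome median. Chromosome 7, which carries Plk1, has 0.903 times that median and was left as it was. Cdk1 lies on chromosome 10 from 69335146 to 69352912 (gene 12534). The lower end scored 1.34 and the higher end 4.31, from 10 reads against 2.43 expected, 4 bp outside the gene. The adjusted p was 0.122, and 75 bp in a row scored 3 or more. Among all protein-coding genes, 7.20% scored as high near an end (95% Wilson interval 6.86 to 7.55%).

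This rank changed when the depth of chromosome 10 was allowed for. The expected level from Input also exceeded the genome-wide level over 72.2% of its bases, against 48.8% on chromosome 19, the next highest. It did not do so at the highest bases of Cdk1 at the end and inside, where the expected level was the genome-wide 2.43 reads. Among the 1001 protein-coding genes of chromosome 10, which was read at 1.41 times the autosome median, 14.8% had an end score as high as Cdk1. With the expected level raised to the depth of the chromosome the Cdk1 end score was 3.07, below the 3.65 of Plk1, and 16.6% of genes then scored as high. With each read pair counted once it was 2.79. The part of chromosome depth in the Cdk1 score was not tested further.

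Inside Cdk1 the highest score was 5.01, from 11 reads 2195 bp from the higher end, with a run of 20 bp at 5 or more and an adjusted p of 0.0687. Outside, 12 reads against 2.72 expected gave 5.24 at a base 1399 bp below the lower end, where 7 bases in the window scored 5 or more and the adjusted p was 0.0687. Within chromosome 10, 30.6% of genes scored as high inside and 16.2% as high outside. None of these runs came near the 200 bp that a called region needs. With a window of 2 kb in place of 1 kb at the ends, the base below the lower end entered, and Cdk1 scored 5.24.

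Ccnb1 and Ccnb2 encode cyclins B1 and B2, the partners that activate CDK1. Ccnb1 lies on chromosome 13 from 100778739 to 100786486 (gene 268697). Its lower end scored 2.44, from 7 reads 356 bp outside the gene, and its higher end 1.00. The inside score was 3.65, from 9 reads, and the outside score 2.44, a value that 93.1% of genes matched or passed. Only the highest base around Ccnb1 was low, as the mean score there was 0.342 (51.9% of genes had one as high) and the read ratio 0.617 against an all-gene median of 0.605.

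Ccnb2 lies on chromosome 9 from 70407689 to 70421554 (gene 12442) and had the lowest scores of the 10 at the ends and outside. Its ends scored 0.64 and 1.37, the latter from 5 reads against 2.50 expected, and 92.4% of all protein-coding genes scored as high. The outside score was 1.90, matched or passed by 97.9% of genes. Chromosome 9 was read at 0.759 times the autosome median, and within it 84.8% of the 1201 genes had an end score as high. The annotation also lists the pseudogenes Ccnb1-ps and Ccnb2-ps on other chromosomes. How reads that match several places were treated is not given in the sources used here, so values over the coding parts of both cyclin genes are uncertain.

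Wee1 and Pkmyt1 encode the kinases that restrain CDK1. Wee1 lies on chromosome 7 from 110122059 to 110143299 (gene 22390). Its lower end scored 2.44, from 7 reads 173 bp outside the gene, and its higher end 1.42. The inside score was 3.65 and the outside score 2.44. Pkmyt1 lies on chromosome 17 from 23726336 to 23736735 (gene 268930). Its ends scored 0.96 and 1.90, the latter from 6 reads at a base inside the neighbouring gene Paqr4, and 74.5% of genes scored as high. Its outside score of 3.55, from 9 reads against 2.50 expected, lay inside Kremen2, 6067 bp from the Pkmyt1 end. Neither inhibitory kinase gene had a score above 3.65 in any window.

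Bub1 and Bub1b encode checkpoint proteins of the kinetochore. Bub1 lies on chromosome 2 from 127800197 to 127831859 (gene 12235). Its ends scored 2.44 and 1.84. Inside, 11 reads gave 5.01 at a base 14960 bp from the higher end, and 4 bases in a row scored 5 or more, with an adjusted p of 0.0687. The outside score was 4.89, from 11 reads against 2.50 expected, 3948 bp below the lower end. Both elevations of Bub1 thus lay away from its ends, and no base outside the gene reached a score of 5.

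Bub1b lies on chromosome 2 from 118598202 to 118641592 (gene 12236), and at 43391 bp it is the longest of the 10 genes. Its lower end scored 3.02, from 8 reads 506 bp outside the gene, and its higher end 1.42. Inside and outside it scored 4.20, from 10 reads against 2.50 expected in each window. Of all genes, 29.3% scored as high inside and 26.5% as high outside.

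**Figure D2:**
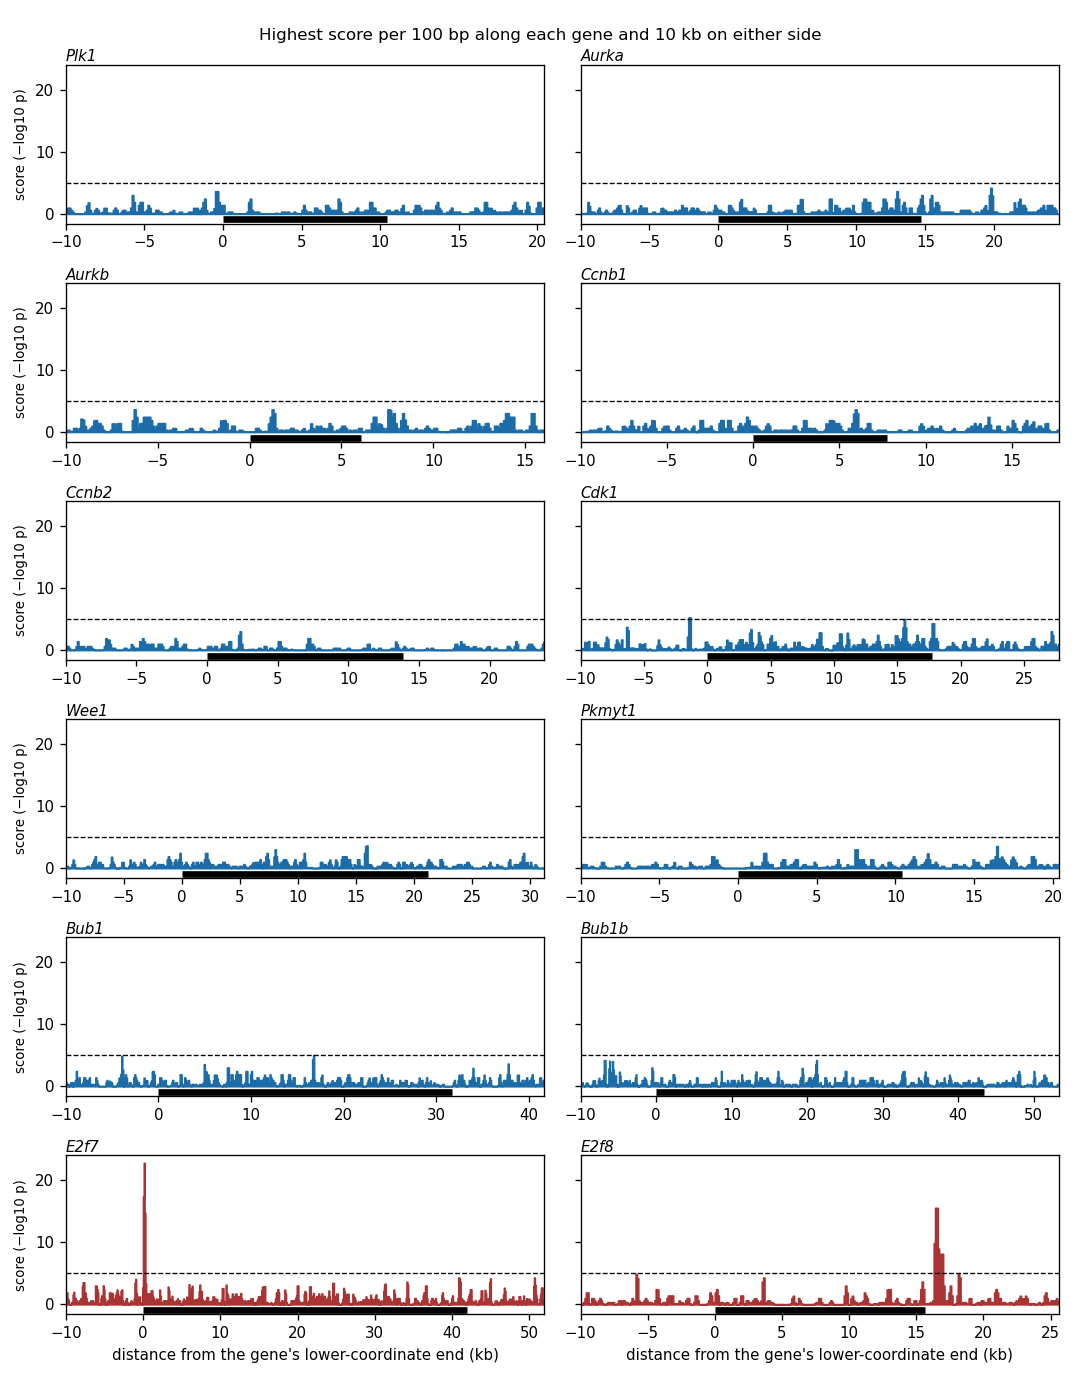
Each panel gives the highest score (−log10 p) per 100 bp along 1 gene and 10 kb on either side, against the distance in kb from its lower-coordinate end; the black bar is the gene and the dashed line a score of 5. The blue panels show many short elevations up to 5.24, and the highest peaks in the red panels of E2f7 and E2f8 are narrow, at 22.79 and 15.53. In the 10 kb outside E2f8, 469 bases scored 5 or more with a longest run of 299 bp, so some lie apart from its highest peak.

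The order of the 10 genes by end score was Cdk1, Plk1, Aurka and Bub1b at the same score, then Aurkb, Ccnb1, Wee1 and Bub1 at the same score, then Pkmyt1 and Ccnb2. With the expected level raised to chromosome depth, Plk1 (3.65) came before Cdk1 (3.07). Neighbours in the order of the deposited scores differed by 1 inferred read, 10 at Cdk1, 9 at Plk1 and so on down to 5 at Ccnb2. The exact Poisson interval for 10 reads is 4.80 to 18.4 and for 5 reads 1.62 to 11.7, so even the ends of the order overlapped in counting error. These 95% intervals cover counting error only, take reads as independent although they come in pairs, and ignore that each base was the highest of its window. At E2f7 31 reads were inferred (21.1 to 44.0) and at E2f8 23 (14.6 to 34.5). The interval of Cdk1 lay below that of E2f7 and overlapped that of E2f8.

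The reference genes also had longer runs. Scores of at least 5 ran for 269 bp at E2f7 and 299 bp at E2f8, where chromosomes 10 and 7 are those that also carry Cdk1, Plk1 and Wee1. The longest such run in any of the 3 windows of the 10 genes was the 20 bp inside Cdk1. Of all protein-coding genes, 12, E2f7 included, had an end score as high as E2f7 and 26 one as high as E2f8, while 1575 had one as high as Cdk1. E2f7 and E2f8 were taken because the study describes them as bound from this experiment. The study also checked both sites by ChIP-qPCR and tested them in luciferase reporters. Their high scores here were part of that description, so they are no independent contrast. The 10 genes were chosen by name with earlier results of the track known, and no test was made of the difference.

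**Figure D3:**
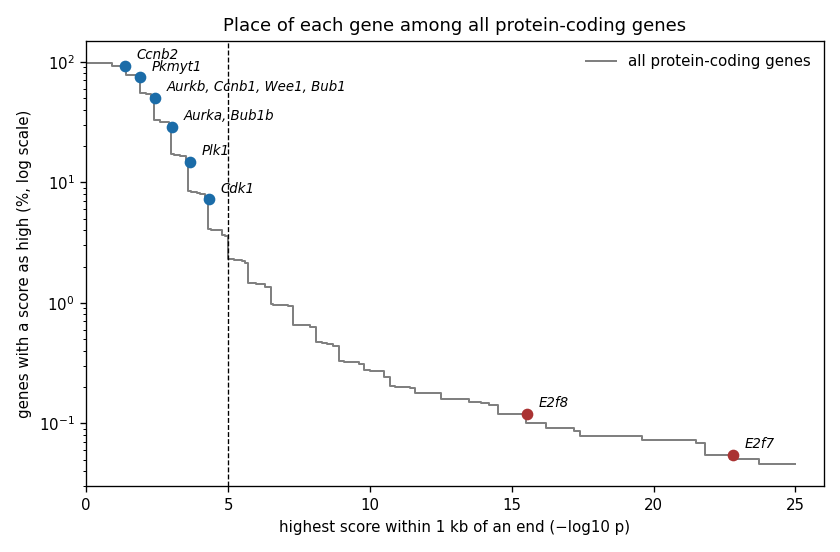
The grey line gives, on a log axis, the percentage of all protein-coding genes whose highest score within 1 kb of an end (−log10 p) is at least the value on the horizontal axis; dots are the 10 genes in blue and E2f7 and E2f8 in red, and the dashed line is a score of 5. The blue dots run from 92.4% at Ccnb2 to 7.20% at Cdk1, and the red dots sit at 0.119% and 0.0548%.

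The inferred reads were also summed over whole windows, which does not depend on a single highest base. The ratio of ChIP reads to expected reads at the ends ran from 0.378 at Ccnb2 to 0.722 at Aurka, with a median of 0.605 against 0.592 over all protein-coding genes. Ratios below 1 were the rule. The expected level never falls under 2.43 reads, while the mean pileup of chromosome 1, for example, was 1.82 reads per base. On chromosome 10 the mean pileup was 2.44, and the median ratio at the ends was still 0.757. The cause of the low ratios was not tested. Because most ratios lay below 1, genes are compared with the median of all genes and not with 1. At the ends, 6 of the 10 ratios lay above the all-gene median, and the intervals of all 10 held it. The ratio at Ccnb2 was 0.378 with an interval of 0.202 to 0.650, and at Pkmyt1 0.402 (0.221 to 0.678).

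Inside the genes Cdk1 had the highest ratio of the 10, 0.884 (0.756 to 1.03), and 4.52% of all genes had one as high. On chromosome 10 the median ratio was 0.749, and 15.7% of genes had one as high. Bub1 followed with 0.747 (0.652 to 0.854), matched or passed by 18.2% of the genes on chromosome 2, whose median was 0.652. Ccnb2 had 0.383 (0.280 to 0.510), below the all-gene median of 0.597, and Plk1 had 0.473 (0.339 to 0.635). The low Ccnb2 value stood beside the low depth of chromosome 9, whose median ratio inside genes was 0.468, and 85.9% of its genes had a ratio as high.

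Around the genes, the 20 kb flanking Aurkb held 286 inferred ChIP reads against 356 expected, a ratio of 0.803 (0.677 to 0.946). This was the highest of the 10 outside ratios and was matched or passed by 4.08% of all genes and 2.80% of those on chromosome 11, which had a depth of 1.02 times the autosome median. The lower flank had 0.752 (0.580 to 0.958) and the higher flank 0.851 (0.674 to 1.06), and the interval of the lower flank holds the all-gene median of 0.605. The flanks overlap the protein-coding genes Ctc1, which acts in telomere replication, and Borcs6, which acts in lysosome positioning, and the lower flank also holds 7 tRNA genes. Reads over tRNA genes can match other copies, and the part of these neighbours in the ratio was not tested. At the ends of Aurkb itself the ratio was 0.485 (0.276 to 0.758), an interval that holds the all-gene median.

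**Figure D4:**
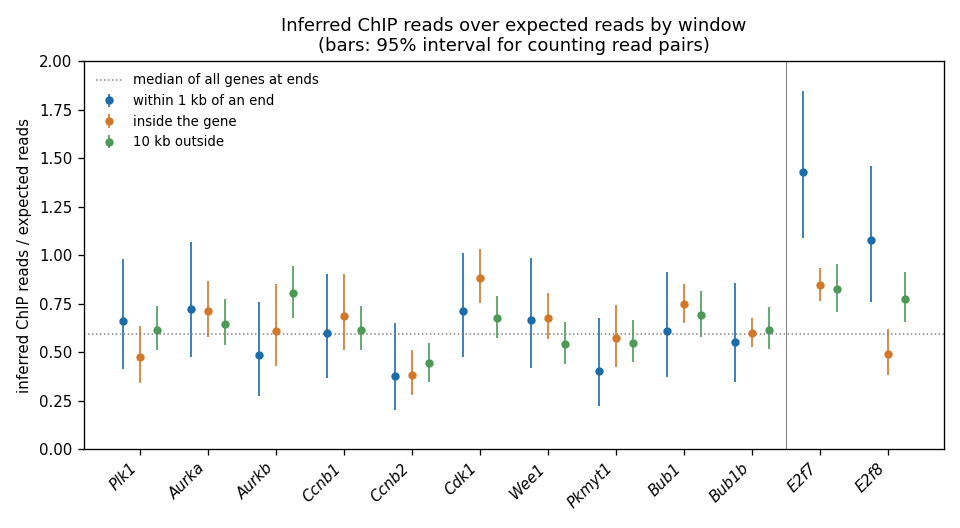
Points give the inferred ChIP reads divided by the expected reads in each of 3 windows per gene, with 95% intervals for counting read pairs; the dotted line is the median of all protein-coding genes at their ends. The 10 genes range from 0.378 to 0.884, and the end windows of E2f7 and E2f8 lie at 1.43 and 1.08.

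The pathway around the 10 genes was read from 60 other G2 and M phase genes in 5 lists, all of which were matched in the annotation. Near their ends, 2 of the 60 reached a score of 5 (3.33%, against 3.60% of all genes) and 18 of the 60 reached 3 (against 29.1%), with a median of 2.44. None had a called region in its 3 windows. The highest end score was 7.31 at Anapc1, a scaffold subunit of the anaphase-promoting complex, the ubiquitin ligase that ends mitosis. It came from 14 reads against 2.43 expected, 645 bp inside the higher end, with a run of 120 bp at 5 or more and an adjusted p of 0.00264. With read pairs counted once the end score of Anapc1 was 4.39, below 5, and with 500 bp windows it was 1.90. Of all protein-coding genes, 0.932% had an end score as high.

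Anapc11, the RING subunit of the same complex, scored 5.01 at 284 bp inside its lower end, within 1 kb of an end of Alyref, an mRNA export factor gene, with an adjusted p of 0.0687. With read pairs counted once it scored 2.79, so that none of the 60 genes then reached 5 (0.457% of all genes). Fbxo5, which encodes the inhibitor EMI1 of that complex, followed with 4.31 and lies on chromosome 10, as Cdk1 does. The lowest were Chek1 (0.64), a kinase of the DNA damage checkpoint, Cdc16 (0.96), a subunit of the anaphase-promoting complex, and Ttk (1.00), the checkpoint kinase MPS1, whose value Mad1l1 shared. Among the 19 genes of the anaphase-promoting complex list 8 reached 3 near an end (42.1%, against 29.1% of all genes), and among the 11 other mitotic kinases and Aurora partners 3 did (27.3%). The 14 cyclins, CDK partners and regulators had 4 (28.6%), the 11 other spindle checkpoint genes 2 (18.2%) and the 5 damage checkpoint genes 1. The list medians ran from 1.90 to 2.44. Inside the genes 4 of the 60 reached 5 (6.67%, against 13.9% of all genes), Anapc1, Anapc11, Espl1 and Knl1, of which Espl1 and Knl1 are named after their values were seen. The inside scores of Anapc1 and Anapc11 come from the same bases as their end scores and are no separate result. In the 10 kb outside 6 reached 5 (10.0%, against 10.3% of all genes). Of these 2, Espl1 at 6.51 and Fbxo5 at 5.73, had an adjusted p of 0.05 or less (3.33%, against 5.38% of all genes). The adjustment takes both reads of a pair as independent, and outside scores were not recomputed with read pairs counted once.

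**Figure D5:**
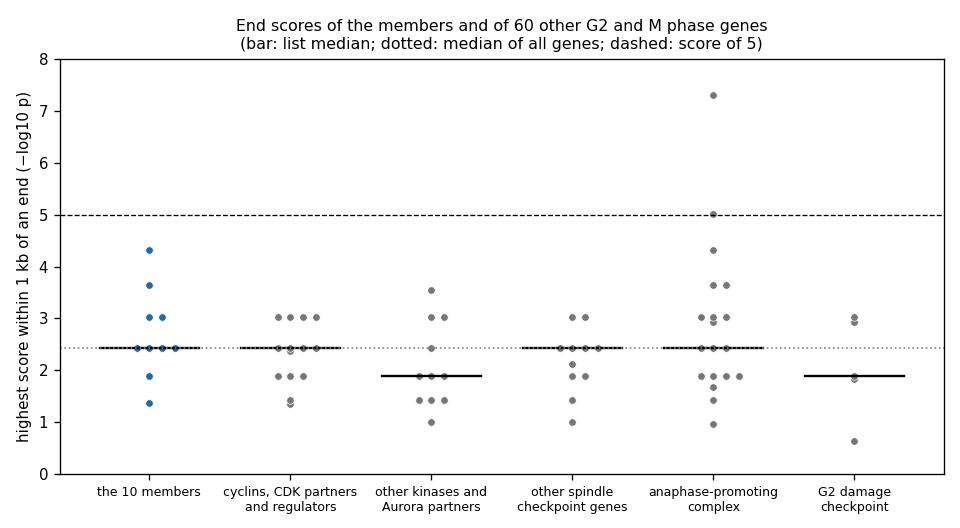
Each dot is the highest score within 1 kb of an end (−log10 p) of 1 gene, for the 10 genes in blue and the 5 lists of 60 other G2 and M phase genes in grey; black bars are medians, the dotted line is the median of all protein-coding genes and the dashed line a score of 5. The medians lie at 1.90 or 2.44, and Anapc1 at 7.31 and Anapc11 at 5.01 reach the dashed line.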

How the data were processed

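TBX3 ChIP and Input DNA of mouse primary hepatocytes was sequenced on a NextSeq 500 system. Per the labels, the authors used Bowtie2, SAMtools and MACS2 on mm10, with no versions given, and deposited a bedGraph of −log10 p-values for ChIP against Input. Which of the 4 libraries entered it, and how duplicate reads were treated, is not given in the sources used here, and the file has 0 further columns with values of single samples. The depth per library is unknown from the track.

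The highest and mean score were taken within 1 kb of both gene ends, inside the gene and in the 10 kb outside, with gene spans from RefSeq GRCm38.p6 (21887 protein-coding genes). The table holds spans without strand, exons or UTRs. A region needed scores of 5 or more over 200 bp or more, with gaps no longer than 30 bp. p-values were adjusted by Benjamini-Hochberg over all bases of the track. Scores and adjusted p-values take the reads of a pair as independent.

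Behind each score, a whole number of ChIP reads (extended to 150 bp) and an expected level (the highest of the genome-wide level of 2.43 reads and Input in windows of 150, 1000 and 10000 bp) were inferred as the pair that gives it under a Poisson distribution, with as few changes along the chromosome as possible and a tolerance of 1 unit in the fifth decimal. A pair was found for 99.9999% of bases, and for 99.9% of those scoring 5 or more. The pileups are inferred values and sum to 30128999 ChIP reads. Chromosome depth is the mean inferred ChIP pileup of a chromosome over the autosome median. Where a chromosome was deeper than the median, raising the expected level to its depth multiplied the genome-wide level by this ratio. Other chromosomes were left unchanged. Islands of 2 reads (961357) far outnumbered those of 1 read (37933), so intervals of read ratios treat 2 reads as 1 pair. They are exact 95% Poisson intervals, those of shares are Wilson intervals, and all cover counting error only. For scores with read pairs counted once, the inferred reads at each base were divided by 2 and rounded down. The expected level was also divided by 2. The reads of a pair need not cover the same base, so these scores are a rescaling and not an exact count of pairs.

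The genes named are the 10 genes, E2f7 and E2f8, and, of the other 60 genes, the 3 highest, the 3 lowest and any at 5 or more by end score. Espl1, Knl1 and Mad1l1 were named after their values were seen. The 10 genes, the lists, the tests and the alternatives were chosen with earlier results of these data known. Inference, calling and window summaries were tested on simulated data. The software was numpy 2.4.6 under Python 3.11.15, with scipy 1.17.1 for statistics, numba 0.67.0 for loops, pandas 2.3.3 for tables and matplotlib 3.10.9 for plots.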

Additional observations from a re-analysis of the deposited data

How the results depend on the processing

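No paired analysis was possible because a replicate block needs values of single libraries, which the track does not hold, and leaving out a replicate was not possible for the same reason. Alternatives that use the transcription start alone, and all promoter motif alternatives, were not run, since the gene table used here has no strand and no promoter sequence. The count of genes with a called region was 0 under all 5 alternatives. Shares of all genes with a region were not computed under these, so whether 0 is the background there is unknown. The count at the ends, 0 at a cutoff of 5, was 4 at a cutoff of 3 (29.1% of all genes) and 1 with 2 kb windows (5.19% of all genes). Inside, where it was 2, it was 9 at a cutoff of 3 (61.9% of all genes) and 0 at a cutoff of 10 (0.370%). At an adjusted p of 0.05 it was 0 (7.41%). Outside, where it was 1, it was 7 (74.8% of all genes), 0 (0.443%) and 0 (5.38%) under these. It was 2 with 20 kb windows (17.8% of all genes), in which Aurka scored 5.75. The zeros are near the background. Among the 60 other genes, 2 at the ends became 18 at a cutoff of 3 (29.1% of all genes) and 0 at a cutoff of 10 (0.279%). The count was 1 at an adjusted p of 0.05 (2.26%), 4 with 2 kb windows (5.19%) and 1 with 500 bp windows (2.56%). On rescaled scores, counts chosen after seeing the data, the count of the 60 was 0 with read pairs counted once (0.457% of all genes). It was 1 (Anapc1) with the expected level raised to chromosome depth (2.50% of all genes). The count of the 10 genes stayed 0 under both, which is near those shares. The median end score of 2.44 (2.44 over all genes) was 0.354 as a mean over the window (0.333). It was 1.45 (1.45) with read pairs counted once and 2.41 (2.23) with the expected level raised to chromosome depth. With 500 bp windows it was 2.44 (1.90) and with 2 kb windows 3.33 (2.62). The 2 medians were thus equal only in the deposited scores with 1 kb windows and with read pairs counted once. The share of genes as high as Cdk1, 7.20%, was 15.6% by the mean score, 3.13% with 2 kb windows, 4.66% with 500 bp windows, 6.84% with read pairs counted once, 16.6% with the expected level raised to chromosome depth and 5.64% among all annotated genes. The shares of the other 9 genes moved in 45 of 45 alternatives, 23 up and 22 down, while 40 of 40 single end scores and 19 of 20 read ratios stayed within counting error (the ratio of Pkmyt1 fell to 0.214 with 500 bp windows). With so few reads that spread is wide, and the alternatives reuse the same reads, so this is no measure of robustness. The end score of Aurkb, 2.44, was 0.64 with 500 bp windows and 3.65 with 2 kb windows. That of Pkmyt1, 1.90, was 0.64 with 500 bp windows and 2.44 with 2 kb windows. Changes with the cutoff or window follow from their construction, and other causes were not tested. At 2.43 expected reads a score of 5 needs 11 reads, and how weak a binding site the track could show was not tested.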
